A study of Mus musculus with 9 samples.

Results

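The p53 axis and the CDK inhibitors were represented by 10 genes of the 24594 in the deposited count file, chosen by symbol through their Entrez identifiers: Trp53, its antagonist Mdm2, the p53 targets Ccng1 and Trp53inp1, the CIP/KIP inhibitors Cdkn1a, Cdkn1b and Cdkn1c, and the INK4 inhibitors Cdkn2a, Cdkn2b and Cdkn2c. All 10 were found, 7 of them expressed well enough to be tested and 3 (Cdkn1c, Cdkn2a and Cdkn2b) without a single read in any library. The study sequenced polyA-selected, stranded RNA of BG2 cells, a mouse mammary epithelial line derived from a tumour of the MMTV-Neu-IRES-Cre (MMTV-NIC) strain, with and without the transcription factor gene Sox10. In that strain the MMTV promoter drives both the oncogene Neu and the recombinase Cre in mammary epithelium, so the wild-type cells and the knockout cells all carry Neu and Cre. The control was a bulk wild-type population, whose libraries bear the code NTC. Clone 1 and clone 2 are each a single clone grown out of a pool of cells in which CRISPR guides had targeted the Sox10 open reading frame in exon 3. Each of the 3 groups has 3 libraries, which the labels call technical replicates, so the p-values below measure the spread between libraries of 1 population and do not cover the spread between independent cultures or clones. What the loss of Sox10 did, what single-cell cloning did and what is peculiar to a clone cannot be told apart within a clone.

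p53 is a transcription factor that DNA damage, oncogene signalling and other stresses stabilise. It is held low by Mdm2, a ubiquitin ligase that is itself a p53 target, and it arrests the cell cycle chiefly through Cdkn1a, which encodes p21. CDK inhibitors fall into 2 families: the CIP/KIP proteins p21, p27 and p57 bind several cyclin and CDK complexes, and the INK4 proteins p15, p16, p18 and p19 bind CDK4 and CDK6 and keep them from inactivating the retinoblastoma protein. The Cdkn2a locus encodes both p16Ink4a and, in another reading frame, p19Arf, which inhibits Mdm2. In mammary tumour cells driven by Neu, p27 and the Arf to p53 route are known brakes on growth.

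Library totals ran from 65805296 to 83282841 counts, and 13928 genes passed the filter on low counts. Sox10 had 16660, 21437 and 26038 counts in the control libraries, at most 6 counts in a clone 1 library and at most 2 in a clone 2 library. Of the genes tested, 76.5% passed the test at an adjusted p under 0.05 in clone 1 against control, 74.4% in clone 2 against control and 57.6% in clone 2 against clone 1, so a passed test alone says little about a gene here. The label of epithelial cells was borne out in the control, where the summed level of 7 mammary epithelial markers was 8603 to 10110 CPM (counts scaled to a common library total), with Epcam at 659.5 CPM. It was only 1119 to 1272 CPM in clone 1 and 1498 to 1691 CPM in clone 2, and Epcam had no count in clone 2. Of these markers 5 of 7 were lower in both clones. The basal keratin genes went the other way: Krt14 was higher in both (1.40 ± 0.13 and 5.15 ± 0.13 on the log2 scale, from 3.803 CPM to 10.05 and 135.2 CPM), and Krt5 was higher in clone 1, at 0.396 CPM there (1.92 ± 0.61, adjusted p = 0.0134, edgeR). The summed level of 7 fibroblast markers was 30.3 to 35.9 (control), 215.3 to 222.5 (clone 1) and 136 to 150 CPM (clone 2), with all 4 tested markers higher in both clones and Thy1 and Lum at 0 in all 9 libraries. Of the immune markers Cd3e was at 0 in all libraries and Ptprc at 0 in both clones, while Cd68 was higher in clone 2, Lyz2 was higher in both clones (3.30 ± 0.54 and 7.80 ± 0.37) and Csf1r was lower in both (-1.01 ± 0.42 and -1.42 ± 0.43), and the summed level of the 7 markers was 7.31 to 12.5 CPM, 9.58 to 11.4 CPM and 43.6 to 46.0 CPM in the same order. Of 4 endothelial markers only Kdr was high enough to test, and the 4 summed to at most 0.108 (control), 17.3 (clone 1) and 0.953 CPM (clone 2). The part of this change of cell state in the differences below was not tested.

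Sequence upstream of the p53 targets is shown first, because Cdkn1a, Ccng1 and Mdm2 differed between the clones. The windows are the 250 bases before a RefSeq transcript start (GRCm38.p6), written 5′ to 3′ on the strand of the gene, and capitals mark matches to the p53 half-site, the 10-base consensus that occurs in pairs in p53 response elements. Its reverse complement is the same consensus, so a search of 1 strand covers both. The search allowed no mismatch and covered only these windows, so elements elsewhere, as in introns, were not sought.

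Cdkn1a (chr17:29090729-29090978, plus strand): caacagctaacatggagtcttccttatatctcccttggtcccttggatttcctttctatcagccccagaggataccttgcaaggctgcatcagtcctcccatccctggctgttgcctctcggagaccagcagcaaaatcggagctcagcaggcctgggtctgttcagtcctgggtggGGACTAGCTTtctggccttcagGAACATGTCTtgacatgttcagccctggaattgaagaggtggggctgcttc
Ccng1 (chr11:40755287-40755536, minus strand): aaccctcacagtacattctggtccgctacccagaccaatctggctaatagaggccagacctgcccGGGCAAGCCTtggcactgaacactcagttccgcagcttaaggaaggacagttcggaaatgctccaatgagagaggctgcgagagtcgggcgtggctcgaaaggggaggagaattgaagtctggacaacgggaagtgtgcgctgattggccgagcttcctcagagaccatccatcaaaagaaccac
Mdm2 (chr10:117710759-117711008, minus strand): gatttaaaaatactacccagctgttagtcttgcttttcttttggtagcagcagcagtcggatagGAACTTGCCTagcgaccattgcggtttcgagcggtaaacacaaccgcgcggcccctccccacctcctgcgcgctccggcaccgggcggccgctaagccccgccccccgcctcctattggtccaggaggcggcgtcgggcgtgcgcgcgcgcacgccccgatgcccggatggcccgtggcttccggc

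The Cdkn1a window held a pair of half-sites, GGACTAGCTT at 73 to 64 bases before the start (chr17:29090906-29090915) and GAACATGTCT at 51 to 42 bases before it (chr17:29090928-29090937), separated by 12 bases. The 10 bases directly after GAACATGTCT matched the consensus at all but a single base, so they are not marked. A pair of exact matches with a spacer of at most 13 bases was present in 21 of the 32851 RefSeq windows of this length (0.0639%). Single exact half-sites stood in the windows of Ccng1, Mdm2 and Trp53, and a half-site stood in 7.13% of all windows. In the Ccng1 window the 10 bases directly before the half-site matched the consensus at all but a single base. No match was found in the windows of Cdkn1b, Cdkn2a, Cdkn2b and Cdkn2c or in that of the second Cdkn1a start, which lies 2790 bases downstream, and Trp53inp1 and Cdkn1c had no window in the table. A match describes letters in a window and is neither evidence of binding nor a cause of a difference in transcript level.

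Trp53 transcript was lower in both knockout clones, by about the same small amount. Trp53 (Entrez 22059, chr11:69580348-69591873, plus strand) stood at 260.8, 274.0 and 278.7 (control), 209.0, 229.3 and 233.5 (clone 1) and 221.5, 224.5 and 225.1 CPM (clone 2). Every library of either clone lay below every control library, while the clones overlapped each other. The log2 fold change against control was -0.28 ± 0.05 (SE) in clone 1 (adjusted p = 0.000441, edgeR quasi-likelihood test with Benjamini-Hochberg adjustment, as throughout) and -0.28 ± 0.05 in clone 2 (adjusted p = 0.000437). Both clones were compared with the same 3 control libraries, so these values are not independent of each other. The 1151 tested genes of chromosome 11 had a median log2 fold change of 0.03 in clone 1 and -0.00 in clone 2. In bulk RNA, fewer cells with the transcript and less transcript per cell cannot be told apart, and transcript level says nothing of p53 protein, which is governed largely by its turnover.

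Mdm2, the ligase that marks p53 for degradation, was higher in clone 2 and not measurably different in clone 1. Mdm2 (Entrez 17246, chr10:117688875-117710758, minus strand) was at 95.03, 87.2 and 81.6 (control), 101.5, 84.9 and 82.6 (clone 1) and 124.2, 111.3 and 120.2 CPM (clone 2). All 3 clone 2 libraries lay above the other 6, which were intermingled. The log2 fold change was 0.43 ± 0.08 in clone 2 (adjusted p = 0.000689) and 0.03 ± 0.08 in clone 1 (adjusted p = 0.77), where it turned to -0.0319 without control replicate 3 and to -0.0672 without clone 1 replicate 1. The difference between the clones was 0.40 ± 0.08 (adjusted p = 0.0018). Mdm2 lies on chromosome 10, whose 671 tested genes had a median log2 fold change of 0.41 in clone 1 and 0.39 in clone 2. Against that median, Mdm2 in clone 2 was near the level of its chromosome and Mdm2 in clone 1 was below it. The part of the chromosome-wide shift in the Mdm2 value was not tested. Mdm4, the relative of Mdm2 that binds p53 without degrading it, was at 57.0 ± 9.36, 67.1 ± 11.8 and 65.8 ± 8.06 CPM in control, clone 1 and clone 2 (SD, n = 3 in each) and did not pass the test in either clone.

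Ccng1, which encodes cyclin G1, a p53 target that recruits a phosphatase to Mdm2, was lower in clone 1. Ccng1 (Entrez 12450, chr11:40748552-40755309, minus strand) gave 244.7, 197.2 and 192.1 (control), 120.8, 103.5 and 96.0 (clone 1) and 220.1, 165.8 and 172.5 CPM (clone 2). Clone 1 was separate from both other groups, which overlapped. The log2 fold change was -0.98 ± 0.13 in clone 1 (adjusted p = 2.51e-05), a mean 1.98-fold lower than in the control. It was -0.18 ± 0.13 in clone 2 (adjusted p = 0.206), and the clones differed by 0.80 ± 0.13 (adjusted p = 0.000251). Replicate 1 was the highest library of its group for Ccng1 in all 3 groups. The clone 2 value passed the test without clone 2 replicate 1 (-0.32, adjusted p = 0.0249) and with replicate 1 of every group left out, a choice made after seeing the data (-0.21, adjusted p = 0.000249).

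Trp53inp1, whose product is a stress protein that promotes autophagy and p53-dependent death, had the largest decrease among the 7 genes, in both clones. Trp53inp1 (Entrez 60599, chr4:11156441-11174379, plus strand) was at 16.2, 12.2 and 12.7 (control), 6.54, 4.69 and 4.40 (clone 1) and 5.14, 2.81 and 3.60 CPM (clone 2). Neither clone overlapped the control, and the clones overlapped each other. The mean was 2.63-fold lower in clone 1 (log2 fold change -1.40 ± 0.22, adjusted p = 0.000113) and 3.56-fold lower in clone 2 (-1.83 ± 0.22, adjusted p = 1.47e-05). The difference between the clones was -0.43 ± 0.22 (adjusted p = 0.12). Replicate 1 again was the highest library of each group, and the clones differed by -0.70 without clone 2 replicate 1 (adjusted p = 0.013) and by -0.50 without replicate 1 in all groups (adjusted p = 0.00291). The 848 tested genes of chromosome 4 had a median log2 fold change of -0.49 in clone 1 and -0.53 in clone 2, so Trp53inp1 lay below the median of its chromosome in each. The part of that shift in its value was not tested.

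**Figure D1:**
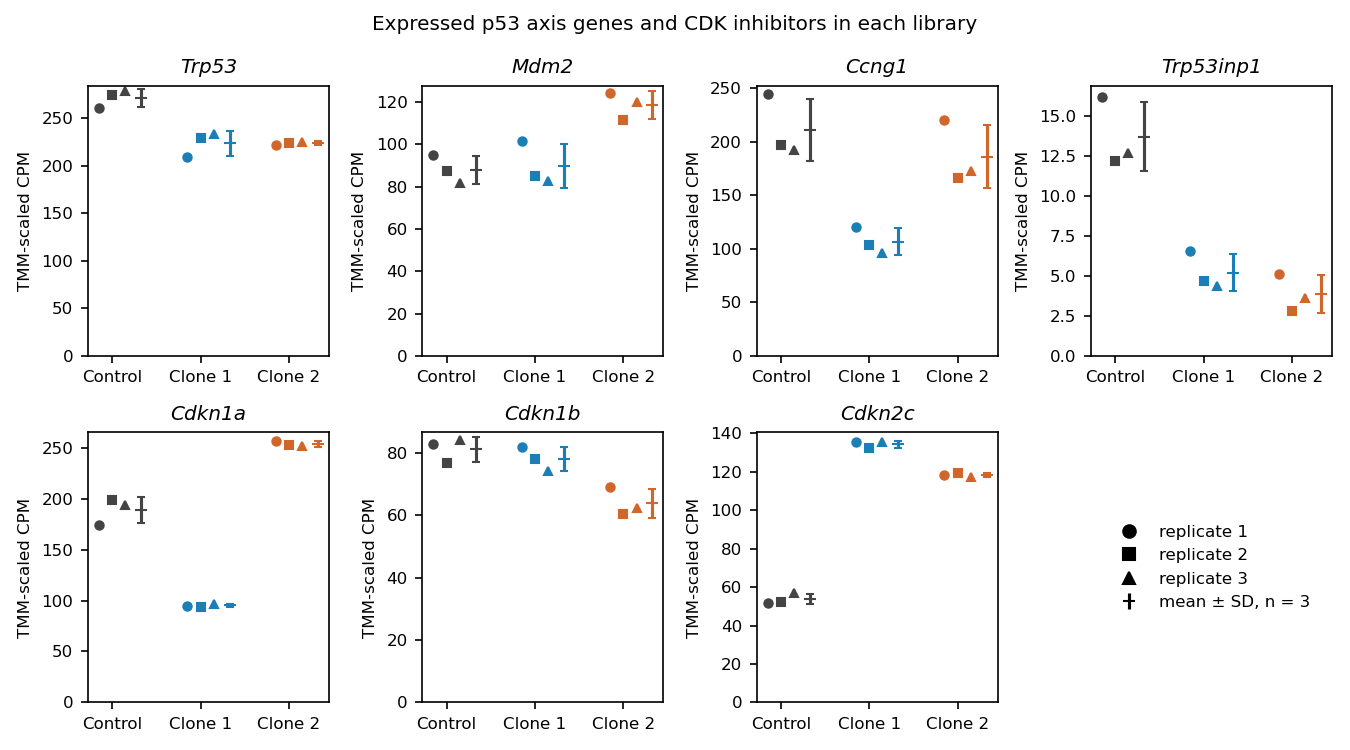
Level of each expressed gene in every library, in TMM-scaled CPM on a linear axis from 0; symbols mark the replicate number and bars the mean ± SD of 3 libraries. Cdkn1a lies below the control in clone 1 and above it in clone 2, and Cdkn2c lies above the control in both clones.

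Cdkn1a, the p21 gene and the best-known transcriptional target of p53, moved in opposite directions in the clones. Cdkn1a (Entrez 12575, chr17:29090979-29100722, plus strand) was at 174.0, 198.5 and 194.1 (control), 94.9, 94.0 and 97.0 (clone 1) and 256.7, 252.3 and 251.3 CPM (clone 2). The 3 groups were fully separate, with clone 1 lowest and clone 2 highest. The mean was 1.98-fold lower in clone 1 (log2 fold change -0.99 ± 0.05, adjusted p = 1.26e-08) and 1.34-fold higher in clone 2 (0.42 ± 0.05, adjusted p = 1.85e-05). Clone 2 exceeded clone 1 by 2.66-fold (log2 difference 1.41 ± 0.05, adjusted p = 4.48e-09). The change in opposite directions was kept when any 1 library was left out, with a clone 1 value between -1.05 and -0.96 and a clone 2 value between 0.34 and 0.45. Of all genes tested, 4.79% passed in opposite directions in the clones and 2.81% were lower in clone 1 and higher in clone 2. The 705 tested genes of chromosome 17 had a median of -0.07 in each clone. The count is for the whole gene, so the transcripts from the start with the half-site pair and from the downstream start were not separated.

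Cdkn1b, which encodes p27, was lower in clone 2 and close to the control in clone 1. Cdkn1b (Entrez 12576, chr6:134920401-134925525, plus strand) was at 82.8, 76.7 and 84.3 (control), 81.8, 78.1 and 74.3 (clone 1) and 69.1, 60.3 and 62.2 CPM (clone 2). Clone 2 lay below the other groups, which overlapped. The log2 fold change was -0.35 ± 0.07 in clone 2 (adjusted p = 0.000534) and -0.06 ± 0.07 in clone 1 (adjusted p = 0.438), and the clones differed by -0.29 ± 0.07 (adjusted p = 0.00297). On chromosome 6 the 682 tested genes went the other way between the clones, with medians of -0.24 in clone 1, 0.09 in clone 2 and 0.32 for clone 2 against clone 1. Of 8 genes whose products take part in p27 degradation, 1 was higher and 1 lower in clone 1, and 3 were higher and none lower in clone 2, with median log2 fold changes of 0.03 and 0.12. That is 25% and 37.5% of the list called, against 76.5% and 74.4% of all genes. Rbx1, the RING subunit of SCF ubiquitin ligases, was higher in both (log2 fold change 0.54 ± 0.05 and 0.63 ± 0.05). Skp2, which recognises phosphorylated p27, was at 28.3 ± 2.78, 28.9 ± 0.489 and 25.0 ± 2.08 CPM and did not pass the test in either clone. Rnf123, the catalytic KPC subunit, was higher in clone 2 (0.56 ± 0.06, adjusted p = 5.92e-06).

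Cdkn2c, which encodes the INK4 protein p18, was the only one of the 7 genes higher in both clones. Cdkn2c (Entrez 12580, chr4:109660876-109666756, minus strand) was at 51.9, 52.4 and 56.9 (control), 135.6, 132.3 and 135.5 (clone 1) and 118.6, 119.4 and 117.3 CPM (clone 2). The groups were fully separate, and the SD was 1.84 CPM for clone 1 and 1.07 for clone 2. The mean was 2.50-fold higher in clone 1 (log2 fold change 1.32 ± 0.05, adjusted p = 4.48e-10) and 2.21-fold higher in clone 2 (1.14 ± 0.05, adjusted p = 1.64e-09). Clone 2 was lower than clone 1 by a small amount (-0.18 ± 0.05, adjusted p = 0.00657). Its chromosome, 4, had negative medians in both clones (-0.49 and -0.53), so Cdkn2c rose on a chromosome whose median was negative. Among the genes with at least 5 CPM in a group, those whose pair of fold changes lay nearest to that of Cdkn2c were Tfrc, Ppp1cc and Sec63. The distances in the plane of the 2 log2 fold changes were 0.00835, 0.0195 and 0.0209, out of 10699 genes compared. For Trp53inp1 they were Coro2a, Mast4 and Tiam2, at distances of 0.0589, 0.0798 and 0.0884.

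Cdkn2d, the fourth INK4 gene, which encodes p19Ink4d, was measured beside the chosen INK4 genes. It stood at 40.5 ± 4.55 (control), 34.1 ± 1.47 (clone 1) and 37.0 ± 0.963 CPM (clone 2) (SD, n = 3). It was lower in clone 1 (-0.25 ± 0.08, adjusted p = 0.0136), and in clone 2 the value was -0.13 ± 0.08 (adjusted p = 0.146).

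**Figure D2:**
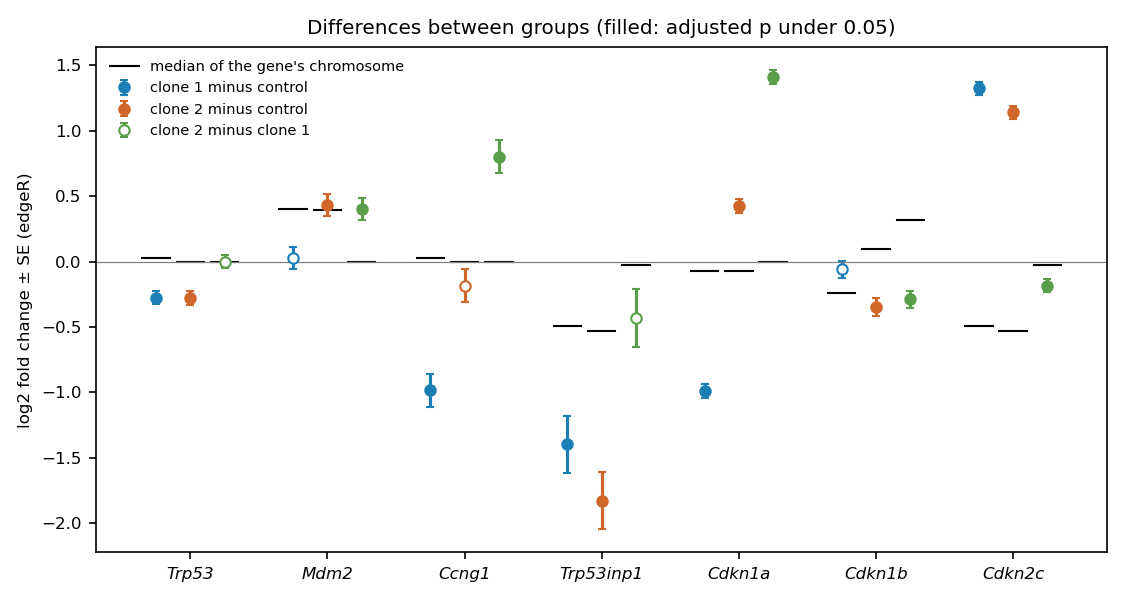
Log2 fold change with its SE for the 7 tested genes in the 3 comparisons, filled where the adjusted p was under 0.05, with a short black line at the median of all tested genes on the same chromosome. Trp53inp1 and Cdkn2c share chromosome 4 and lie on opposite sides of its median in both comparisons with the control.

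Counted together, 5 of the 7 tested genes passed the test in clone 1 (1 higher, 4 lower), against 76.5% of all genes (37.9% higher, 38.6% lower). In clone 2 it was 6 of 7 (3 higher, 3 lower), against 74.4% (37.3% and 37.1%). Clone 2 differed from clone 1 at 5 of 7 (3 higher, 2 lower), against 57.6% (30.1% and 27.5%). Groups did not overlap for 5 of 7 genes in clone 1 (77.9% of all genes), 6 of 7 in clone 2 (76%) and 5 of 7 between the clones (64.9%). These shares are near the background and say nothing particular of the genes as a set. The median log2 fold change of the 7 genes was -0.28 (clone 1), -0.18 (clone 2) and -0.00 (clone 2 against clone 1), beside medians of 0.00, -0.00 and 0.0 over all genes tested. Trp53 and Trp53inp1 were lower in both clones, as were 29.4% of all genes, and Cdkn2c was higher in both, as were 28.7%.

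Levels of different genes can be compared only per length, here as CPM per kb of annotated exon. The length is that of all annotated exons of a gene joined (3553 bases for Cdkn1a, 2686 for Cdkn2c). A single transcript can be shorter, so the orders below depend on the length used. In the control the order was Trp53 (67.0 ± 2.30), Ccng1 (60.2 ± 8.27), Cdkn1a (53.2 ± 3.67), Cdkn2c (20.0 ± 1.01), Cdkn1b (17.9 ± 0.886), Mdm2 (17.3 ± 1.33) and Trp53inp1 (2.12 ± 0.336). The ranges of 1 SD overlapped between Trp53 and Ccng1, Ccng1 and Cdkn1a, and Cdkn1b and Mdm2. In clone 1 the order became Trp53 (55.4 ± 3.24), Cdkn2c (50.1 ± 0.686), Ccng1 (30.4 ± 3.63), Cdkn1a (26.8 ± 0.437), Mdm2 (17.6 ± 2.03), Cdkn1b (17.2 ± 0.829) and Trp53inp1 (0.804 ± 0.179). Ccng1 overlapped Cdkn1a there, and Mdm2 overlapped Cdkn1b. By this measure Cdkn2c was the highest CDK inhibitor gene of clone 1. In clone 2 the order was Cdkn1a (71.3 ± 0.813), Trp53 (55.3 ± 0.472), Ccng1 (52.99 ± 8.43), Cdkn2c (44.1 ± 0.399), Mdm2 (23.3 ± 1.31), Cdkn1b (14.0 ± 1.02) and Trp53inp1 (0.594 ± 0.183), with Trp53 and Ccng1 overlapping. Cdkn2d was at 25.7, 21.7 and 23.5 CPM per kb in control, clone 1 and clone 2.

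**Figure D3:**
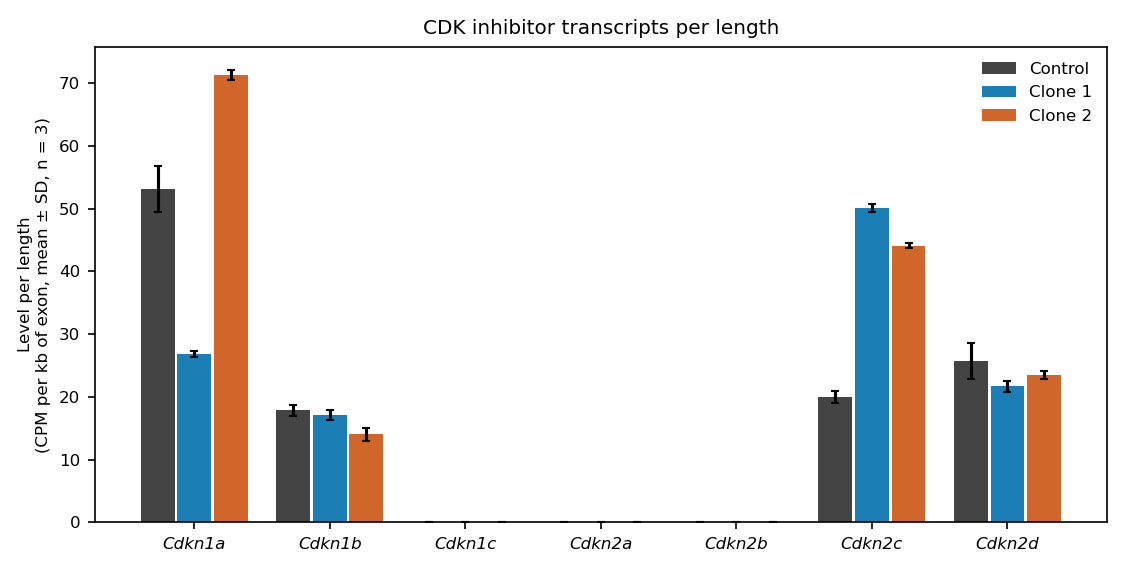
Level of the CDK inhibitor genes per kb of exon in the 3 groups, bars from 0 with the mean ± SD of 3 libraries. Cdkn1a is the highest in the control and in clone 2, Cdkn2c in clone 1, and Cdkn1c, Cdkn2a and Cdkn2b are at 0 in every group.

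Cdkn1c, Cdkn2a and Cdkn2b had 0 counts in each of the 9 libraries. Cdkn1c (Entrez 12577, chr7:143458339-143461059, minus strand) encodes p57, an imprinted CIP/KIP inhibitor. Cdkn2a (Entrez 12578, chr4:89274473-89294619, minus strand) has RefSeq starts at 89294619, known as the first exon of p19Arf, and at 89282192, known as that of p16Ink4a, and a count of 0 for the gene covers both. Cdkn2b (Entrez 12579, chr4:89306289-89311032, minus strand) encodes p15, and the long non-coding RNA Gm12610, which overlaps all 4744 bases of it, also had no counts. A count of 0 allows a level of up to 0.0360 to 0.0455 CPM in a library, and up to 0.00446 CPM over all 9 libraries, for counting error only. Being at 0 in every library is common: 25.56% of the 24594 genes in the file and 20.51% of the 20622 protein-coding ones were. Since the control had no reads for these genes either, no difference between the groups could be measured.

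The genes around Cdkn2a and Cdkn2b were measurable in part. Mtap, a purine salvage enzyme gene at -135.4 kb from the outer Cdkn2a start, was expressed in all groups, at 166.1 ± 7.39 (control), 64.3 ± 0.269 (clone 1) and 91.4 ± 3.20 CPM (clone 2) (SD, n = 3). It was lower in clone 1 (-1.37 ± 0.05, adjusted p = 4.07e-10) and in clone 2 (-0.86 ± 0.05, adjusted p = 2.09e-08). On the same side, the non-coding genes Wincr1 and Gm12602 were at 3.08 and 0.337 CPM in the control. Wincr1 was lower in both clones (-2.67 ± 0.32 and -2.48 ± 0.31), and Gm12602 was lower in clone 1 (-2.94 ± 0.60) and higher in clone 2 (2.81 ± 0.35).

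On the other side the nearest gene with counts, Dmrta1, had 22 counts over the 3 control libraries and 0 in both clones, too few to test. Zfp352, at 927.6 kb, had 52 counts in the control, 2 in clone 1 and 0 in clone 2. Tusc1, at 4040 kb, had 2114 counts in the control and 0 in both clones, which with a floor of 3 counts over the group is at least 659-fold lower for clone 1 and at least 737-fold for clone 2. Caap1, at 5234 kb, was expressed in all groups at 6.85, 5.16 and 4.52 CPM, and was lower in clone 2 (-0.60 ± 0.19, adjusted p = 0.0148).

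**Figure D4:**
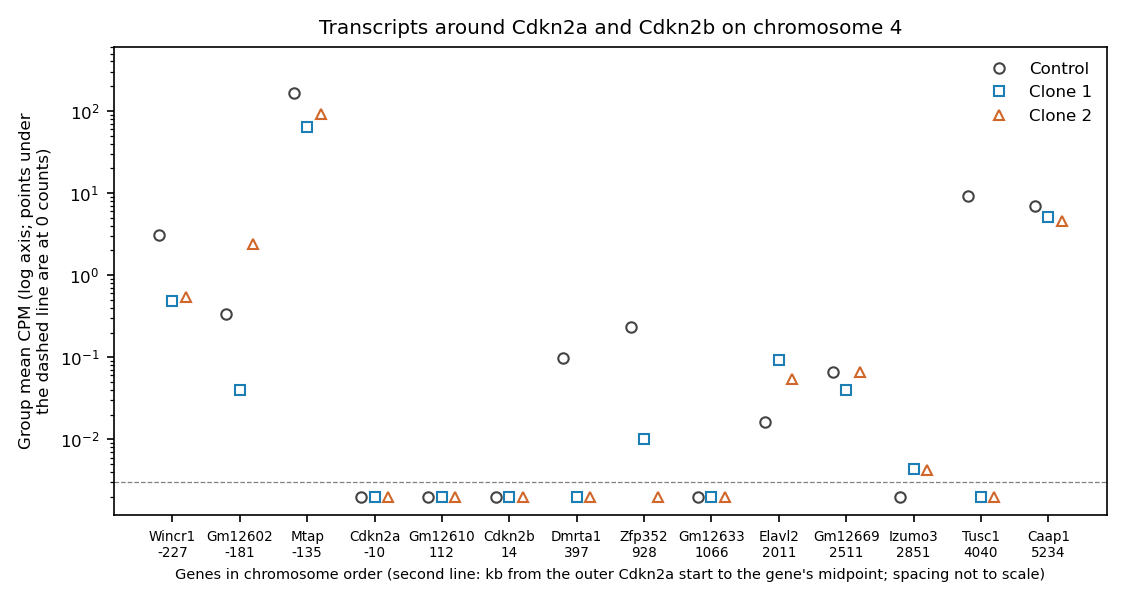
Mean CPM of the genes around Cdkn2a and Cdkn2b in each group on a log axis, in chromosome order with the distance in kb under each name; points under the dashed line are at 0 counts. Mtap is expressed in all 3 groups, Cdkn2a, Gm12610 and Cdkn2b are at 0 in all, and Tusc1 is at 0 in both clones.

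Of 10 known regulators of the Cdkn2a locus 9 were tested (Tbx2 was too low), with 4 higher and 5 lower in clone 1 and 4 higher and 3 lower in clone 2, with median log2 fold changes of -0.28 and -0.08. These counts, and those of the lists that follow, stand beside 37.9% of all genes higher and 38.6% lower in clone 1, and 37.3% and 37.1% in clone 2. The repressors Tbx3 and Bmi1 were higher in both clones. Cbx7, like Bmi1 a Polycomb gene, was lower in clone 1 (-0.45 ± 0.07), and so was Id1 (-0.28 ± 0.04). Neither Cbx7 nor Id1 passed the test in clone 2. Tbx3, a T-box repressor, rose from 0.2697 ± 0.15 (control) to 7.82 ± 0.147 (clone 1) and 8.09 ± 0.430 CPM (clone 2) (log2 fold change 4.86 ± 0.25 and 4.91 ± 0.25). Bmi1, a Polycomb subunit, rose from 38.9 ± 6.88 CPM to 111.9 ± 12.96 CPM and 79.8 ± 15.5 CPM (1.53 ± 0.15 and 1.04 ± 0.15). Dmtf1, an activator of Arf, fell in both (-0.58 ± 0.14 and -0.97 ± 0.14), and so did Zbtb17, which encodes Miz1 (-0.83 ± 0.08 and -0.65 ± 0.08). Ets1 was lower in both as well (-0.38 ± 0.06 and -0.56 ± 0.06). Ets2 (0.32 ± 0.06 and 0.75 ± 0.06) and Myc (0.41 ± 0.04 and 0.11 ± 0.04) were higher in both.

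A wider list of p53 targets held more genes that passed the test as lower than as higher in clone 1, and equal numbers in clone 2. Of its 27 genes 26 were tested (Gdf15 was too low). In clone 1, 6 were higher and 18 lower, with a median log2 fold change of -0.75, where 37.9% of all genes were higher and 38.6% lower. When a log2 fold change beyond 1 was required, this became 5 higher and 5 lower, an even split. In clone 2, 11 were higher and 11 lower, with a median of -0.08, where 37.3% and 37.1% of all genes were. Against clone 1, clone 2 was higher at 15 targets and lower at 3, with a median of 0.35, where 30.1% and 27.5% of all genes were. Without replicate 1 in all groups, 5 targets were lower in clone 2 than in clone 1. Some of the 15 higher targets lie on chromosomes 1, 6 and 9. All tested genes there had medians of 0.33, 0.32 and 0.33 for clone 2 against clone 1. The rest of the 15 lie on chromosomes with medians from -0.12 to 0.02. The part of the chromosome-wide shifts in the target counts was not tested. The list was drawn up with earlier results of these data known, so these counts are a description.

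Of the 26 tested targets 6 rose in both clones and 11 fell in both, where 28.7% and 29.4% of all genes did. Gadd45a, a growth arrest and DNA repair gene, rose from 2.63 ± 0.612 (control) to 34.9 ± 3.92 (clone 1) and 31.3 ± 3.29 CPM (clone 2) (3.73 ± 0.16 and 3.57 ± 0.16). Fas, the death receptor gene, rose from 11.2 ± 0.668 CPM to 59.4 ± 1.57 CPM and 51.7 ± 3.84 CPM (2.40 ± 0.07 and 2.21 ± 0.07). Dram1, a lysosomal autophagy gene, rose by 1.86 ± 0.07 and 2.30 ± 0.07, and Sesn1, an inhibitor of mTORC1 signalling, by 1.87 ± 0.06 and 1.31 ± 0.06. Among the 11 that fell, chosen after their values were seen, were the pro-apoptotic genes Bbc3, which encodes Puma (-1.07 ± 0.08 and -1.15 ± 0.08), and Bax (-1.11 ± 0.06 and -0.76 ± 0.06), and the kinase gene Plk2 (-0.88 ± 0.05 and -1.30 ± 0.05). The chromosome medians in clone 1 and clone 2 ran the same way for Dram1 and Sesn1 (chromosome 10, 0.41 and 0.39). They did so for Bbc3 and Bax as well (chromosome 7, -0.43 and -0.42). For Fas they ran the other way (chromosome 19, -0.45 and -0.46). For Gadd45a (chromosome 6, -0.24 and 0.09) and Plk2 (chromosome 13, 0.17 and -0.48) they differed in sign between the clones. The part of these shifts in the values was not tested.

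Like Cdkn1a, 4 targets were lower in clone 1 and higher in clone 2 (4 of 26, against 2.81% of all genes): Pmaip1, Tnfrsf10b, Zmat3 and Phlda3. Pmaip1, which encodes the BH3-only protein Noxa, was at 2.82 ± 0.515 (control), 0.2498 ± 0.0459 (clone 1) and 6.76 ± 1.53 CPM (clone 2). Its log2 fold changes were -3.48 ± 0.26 and 1.27 ± 0.19, and the clones differed by 4.75 ± 0.25 (adjusted p = 5.07e-08). Tnfrsf10b, the TRAIL receptor gene, was at 39.2 ± 0.509, 27.8 ± 0.464 and 56.4 ± 1.28 CPM (-0.50 ± 0.05 and 0.52 ± 0.05). Zmat3, an RNA-binding protein gene, and Phlda3, an inhibitor of Akt signalling, were added to these names after their values were seen, with -0.75 ± 0.05 and 0.16 ± 0.05 for Zmat3 and -0.33 ± 0.07 and 0.43 ± 0.07 for Phlda3.

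A half-site stood in the 250-base windows of 6 of the 20 targets with a window (30%), against 7.3% of the 10997 tested genes that have one, and a pair of half-sites in none of the 20. These counts too are of matches without a mismatch, within the windows only. The list was made up of genes known as p53 targets, so a higher share could be foreseen. It is not a result of these libraries.

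**Figure D5:**
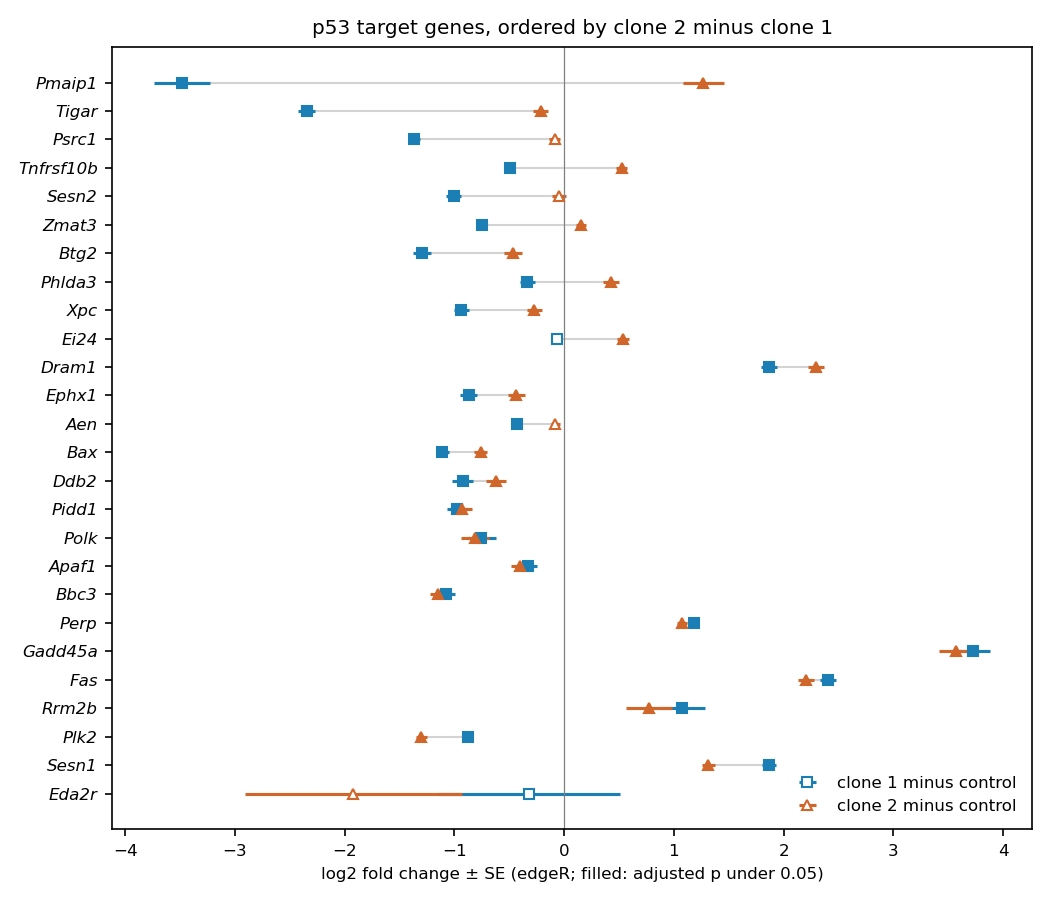
Log2 fold change with SE of 26 p53 target genes in clone 1 (squares) and clone 2 (triangles) against the same control, filled where the adjusted p was under 0.05 and ordered by the difference between the clones. Pmaip1, Tnfrsf10b, Zmat3 and Phlda3 lie below 0 in clone 1 and above 0 in clone 2, and Gadd45a is the highest in both.

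Genes whose products act on p53 were counted in the same way. Of 18 regulators 9 were higher and 3 lower in clone 1 (37.9% and 38.6% of all genes), and 6 higher, 3 lower and 9 not called in clone 2 (37.3% and 37.1%), with medians of 0.22 and 0.09. The DNA damage kinase genes Atm and Atr were higher in both clones, Atm by 1.04 ± 0.15 and 0.85 ± 0.15 and Atr by 0.86 ± 0.23 and 0.71 ± 0.23, and so was Hipk2, a kinase that phosphorylates p53 (0.91 ± 0.06 and 0.85 ± 0.06). Rpl11, a ribosomal protein gene whose free product binds Mdm2, was lower in both (-0.96 ± 0.09 and -0.83 ± 0.09), with the reserve that ribosomal protein genes have near-identical pseudogenes that can share their reads. Of the p53 relatives, Trp63 was at 0.0751 ± 0.0153 (control), 12.2 ± 0.458 (clone 1) and 0.7856 ± 0.1001 CPM (clone 2). It was higher in both clones (7.30 ± 0.18 and 3.35 ± 0.22) and lower in clone 2 than in clone 1 (-3.95 ± 0.13, adjusted p = 1.71e-09). Trp73 had 0 counts in the control and in clone 1 and too few in clone 2 to test.

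The kinases and cyclins on which the inhibitors act changed in part. Of 11 genes 4 were higher and 3 lower in clone 1, and 6 higher and 3 lower in clone 2, with median log2 fold changes of 0.118 and 0.275. Cdk2 was higher in both clones (0.70 ± 0.06 and 0.54 ± 0.06), as were Ccna2 (0.52 ± 0.05 and 0.51 ± 0.05) and Ccnd3 (0.36 ± 0.07 and 0.49 ± 0.07). Ccnd1, the cyclin D1 gene, fell from 1403 ± 31.4 (control) to 817.7 ± 39.3 (clone 1) and 1150 ± 10.3 CPM (clone 2). Ccne1, which encodes cyclin E1, followed the pattern of Cdkn1a, lower in clone 1 (-0.65 ± 0.07) and higher in clone 2 (0.51 ± 0.07). Ccnd2 had 10 counts in the control and 0 in clone 1, and reached 1.27 ± 0.120 CPM in clone 2. Cdk4, a target of the INK4 proteins, was at 393.6 ± 28.8, 427.0 ± 24.1 and 382.4 ± 12.9 CPM and did not pass the test in either clone, and Cdk6 was lower in clone 2 (-0.68 ± 0.07).

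Downstream of the CDKs, 4 of 11 retinoblastoma and E2F genes were higher and 4 lower in clone 1, and 4 higher and 6 lower in clone 2, with medians of -0.07 and -0.20. Rb1 rose from 11.3 ± 0.812 CPM to 35.2 ± 5.51 CPM and 19.0 ± 3.05 CPM (1.63 ± 0.13 and 0.74 ± 0.13), and its relative Rbl2 rose by 1.17 ± 0.06 and 0.33 ± 0.06. E2f5, a repressor E2F, rose by 0.33 ± 0.11 and 0.81 ± 0.11. E2f6, a repressor that acts without retinoblastoma proteins, was at 28.8 ± 2.17 (control) and 0.885 ± 0.0871 CPM (clone 1), a log2 fold change of -5.02 ± 0.12, and clone 2 had no count of it, at least 2270-fold lower with a floor of 3 counts over the group. Among 12 proliferation genes 2 were higher and 5 lower in clone 1, and 1 higher and 6 lower in clone 2, with medians of -0.09 and -0.21. Aurka (-0.95 ± 0.06 and -0.62 ± 0.06) and Plk1 (-0.63 ± 0.06 and -0.55 ± 0.06), mitotic kinase genes, were lower in both, and Mcm4, a helicase subunit gene, was higher in both (0.27 ± 0.06 and 0.40 ± 0.06). Growth itself was not analysed here.

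Of 10 genes often read as signs of senescence 9 were tested, with 3 higher and 5 lower in clone 1 and 2 higher and 4 lower in clone 2, with medians of -0.64 and -0.19. Those that moved did not go 1 way. Cxcl1, a secreted factor that rises in senescent cells, was higher in both clones (1.17 ± 0.05 and 1.60 ± 0.05). Mmp13 and Igfbp7, which are secreted as well, were lower in both (Mmp13 -3.98 ± 0.37 and -2.38 ± 0.32, Igfbp7 -1.61 ± 0.05 and -2.08 ± 0.05). Lmnb1, a lamin gene that is lost in senescence, was at 366.8 ± 3.27 (control), 173.0 ± 5.90 (clone 1) and 155.8 ± 3.97 CPM (clone 2), and was lower in both (-1.08 ± 0.04 and -1.24 ± 0.04).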

How the data were processed

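The 9 libraries were 3 of the wild-type control, 3 of clone 1 and 3 of clone 2. The authors deposited raw read counts per Entrez gene, and the submitters' processing notes name fastp, Subread, DESeq2 and the mouse build mm10 (GRCm38), without versions. The sources used here do not give the annotation, the strand setting or the treatment of reads shared by similar genes. Symbols were matched through the NCBI gene table, 24 of 24594 identifiers had no symbol, and coordinates and exon lengths came from GENCODE on GRCm38. Promoter windows were RefSeq sequences of GRCm38.p6.

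The counts went into edgeR 4.0.16 (R 4.3.3). filterByExpr, at its minimum count of 10, retained 13928 genes, which were scaled by TMM and tested with the quasi-likelihood F-test in 1 fit over the 3 groups and 9 libraries, with Benjamini-Hochberg adjustment over all genes tested and a threshold of 0.05. CPM are TMM-scaled, the SE is the log2 fold change divided by the root of F, and "higher" or "lower" means that the test was passed. The model was tested on simulated counts, with 200 genes changed in clone 1 and none in clone 2. It found 53 of 67 changes of 1.5-fold, 66 of 67 of 2-fold and 66 of 66 of 4-fold. Of the 202 genes called in the simulated clone 1, 17 were unchanged, a share above the threshold of 0.05. In the simulated clone 2, 0 genes were called. The simulation changed 200 of 13928 genes, where 76.5% passed the test in clone 1 of the data. It therefore did not test the scaling or the error rate under so broad a change. Alternatives were DESeq2 1.42.0, other scalings and filters, 2 groups at a time, the replicate number as a block, a minimum effect (glmTreat), and leaving out libraries.

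The members and gene lists were chosen with earlier results of these data known. All 10 members were named, and of each list at most 4 genes that passed with 1 sign in both clones, taken by mean absolute change, and at most 2 that passed with opposite signs. The 3 nearest tested genes on each side of Cdkn2a and Cdkn2b were named, and the 3 genes nearest in both fold changes to each member that passed with at least a 2-fold change in either clone. Cdkn2d, Trp63, Trp73 and the markers other than Krt5, Cd68, Thy1, Lum, Cd3e and Ptprc were named by rule. These excepted markers were named after their values were seen. So were Mdm4, Skp2, Rnf123, Cdk4, Cdk6, Lmnb1, Dmrta1, Gm12610, Zmat3, Phlda3, Bbc3, Bax, Plk2, Cbx7, Id1, Ets1, Ets2 and Myc. The values of 1 gene that the rule names are not reported here.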

Additional observations from a re-analysis of the deposited data

Results flagged for a closer look

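The clones differed from each other in 5 of the 7 tested genes, by the edgeR test of the difference between them (57.6% of all genes tested differed). Clone 2 minus clone 1 was 1.41 ± 0.05 for Cdkn1a on the log2 scale, 0.80 ± 0.13 for Ccng1 and 0.40 ± 0.08 for Mdm2, so these 3 genes were higher in clone 2. It was -0.29 ± 0.07 for Cdkn1b and -0.18 ± 0.05 for Cdkn2c, so these were lower in clone 2. With 1 clone on each side, the differences separate these clones and not kinds of clone.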

How the results depend on the processing

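Over 378 recomputed values of the 7 genes, 351 kept their direction and their side of the threshold, 11 lost the threshold, 6 gained it and 10 changed sign. All 11 losses came from glmTreat, which asks for a log2 fold change beyond 1: it left 3580 of 10653 genes in clone 1, 3388 of 10367 in clone 2 and 1186 of 8018 between the clones, and 2, 2 and 1 of the members. Under it 5 p53 targets were higher and 5 lower in clone 1, 4 were higher and 2 lower in clone 2, and 3 were higher and 0 lower in clone 2 against clone 1. The sign changes were of values near 0. Mdm2 in clone 1 went from 0.03 to -0.0319 without control replicate 3, to -0.0672 without clone 1 replicate 1 and to -0.0153 without replicate 1 in all groups, with leave-out values from -0.0672 to 0.086. Trp53 between the clones went from -0.00 to 0.011 with total counts, 0.0009 with no filter, 0.0016 with a minimum count of 50, 0.0001 with the replicate block, 0.0163 and 0.0295 when clone 1 lost replicate 2 or 3, and 0.0068 when clone 2 lost replicate 1, with leave-out values from -0.0495 to 0.0295. Leaving out libraries gave 10129 to 11202 genes in clone 1, 9886 to 10971 in clone 2 and 7030 to 8892 between the clones, and 5, 6 to 7 and 5 to 6 members.

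By the rule that every same-number pair correlate over 0.1, the replicate numbers were not taken as pairs: the 9 pairs ran from 0.014 to 0.249, with 4 over 0.1. The replicate 1 libraries did deviate together, at 0.214 to 0.249 with each other and -0.212 to -0.048 with other numbers. In all, 11 of 18 library and group combinations were best matched by their own number. As a block they gave 11420, 11257 and 9439 genes. With the block, Ccng1 in clone 2 passed the test (-0.19, adjusted p = 0.000209, edgeR), as did Trp53inp1 between the clones (-0.45, adjusted p = 0.00133), and 5 p53 targets were lower in clone 2 than in clone 1 rather than 3. Without clone 2 replicate 1 these 2 genes also passed (-0.32 and -0.70, adjusted p = 0.0249 and 0.013), and without replicate 1 in all groups, chosen after seeing the data, 5 targets were lower. The cause was not tested. At this depth a level under the floors given for Cdkn2a and Cdkn2b could not be detected.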
